A study of Mus musculus with 24 samples.

Results

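The 10 genes described here encode the core of the major histocompatibility complex (MHC) class I antigen processing pathway of the mouse. They are H2-K1, H2-D1, B2m, Tap1, Tap2, Tapbp, Psmb8, Psmb9, Psmb10 and Nlrc5, and they were chosen by name and function, not by their values, as 10 of the 55401 gene rows of the count table. RNA was sequenced from 24 tumors of TC2Ras, a prostate adenocarcinoma line derived from the TRAMP-C2 line of C57/BL6 mice and carrying activated Ras. The tumors grew in male C57/BL6 mice of 8 to 10 weeks, under the skin of the flank (SC) in 4 libraries and inside the tibia (intratibial) in 20 libraries. The study asked how interleukin-27 (IL-27), a cytokine of the IL-12 family, delivered as a plasmid by sonoporation of muscle, and cabozantinib (cabo), an inhibitor of MET, VEGFR and other tyrosine kinases, alter such tumors.

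All mice received a plasmid, either one encoding IL-27 or the empty vector. SC tumors came from 300000 TC2Ras cells per flank and were collected 1 week after implantation, with 2 control tumors and 2 IL-27 treated tumors. Intratibial tumors came from 100000 luciferase-expressing TC2Ras cells per tibia, and the mice then received cabo by gavage at 30 mg/kg or the polyvinylpyrrolidone vehicle, daily for 2 weeks. At day 14 there were 3 tumors in each of 4 groups, control (empty vector and vehicle), IL-27 (with vehicle), cabo (with empty vector) and IL-27+cabo, and at the end of the study (EOS, the ethical endpoint) there were 2 tumors in each of the same 4 groups. The model rests on 1 cell line grown in 1 strain. The SC libraries are not tied to named animals, both flanks of a mouse were implanted, and a pair of SC tumors may therefore share a mouse, so that p-values measure the spread between these tumors only.

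MHC class I molecules carry short peptides to the cell surface, where CD8+ T cells inspect them. Proteins are cut by the proteasome, and interferon-gamma exchanges its constitutive catalytic subunits for those of the immunoproteasome, Psmb8, Psmb9 and Psmb10. Tap1 and Tap2 form the transporter that moves peptides into the endoplasmic reticulum, and tapasin, the product of Tapbp, bridges the transporter to the empty class I molecule. That molecule is a heavy chain, in C57/BL6 mice H2-K1 or H2-D1, paired with the light chain β2-microglobulin from B2m. Nlrc5 is a transactivator that acts at the promoters of class I genes. Low expression of these genes is a known feature of many prostate cancers, and nearly all nucleated cells, leukocytes in particular, express them.

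All 10 genes were detected in every tumor and passed the filter on low counts in all 17 comparisons. Counts assigned to genes ran from 63729005 to 83782258 per library. Against the label, Pbsn, the probasin gene that marks differentiated prostate epithelium, had 0 counts in all 24 tumors, while the epithelial keratin gene Krt8 was detected at 2.04 to 67.3 CPM (counts scaled to a common library size) in SC tumors and 14.3 to 261 CPM in intratibial tumors. One library stood apart, that of mouse 20 in the day 14 IL-27+cabo group. It had the fewest counts, its correlation with either group mate was 0.908 where all other pairs of replicates reached 0.946 or more, and results that rest on it are also given without it. Every library is a mixture of tumor and host cells, and in such bulk RNA fewer cells of a type cannot be told apart from less RNA per cell.

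Of the 10 genes, 7 lie in the MHC region of chromosome 17. In the GRCm38 build with GENCODE M21 annotation, H2-K1 (ENSMUSG00000061232) lies on the minus strand at chr17:33996017-34000347 and H2-D1 (ENSMUSG00000073411) on the plus strand at chr17:35262730-35267499. Tapbp (ENSMUSG00000024308) lies at chr17:33915899-33929292, Psmb9 (ENSMUSG00000096727) at chr17:34181987-34187764, Tap1 (ENSMUSG00000037321) at chr17:34187553-34197225, Psmb8 (ENSMUSG00000024338) at chr17:34197721-34201454 and Tap2 (ENSMUSG00000024339) at chr17:34203527-34216321. Tap1 and Psmb9 stand head to head on opposite strands and their exons overlap. B2m (ENSMUSG00000060802) is at chr2:122147686-122153083, Psmb10 (ENSMUSG00000031897) at chr8:105935735-105938444 and Nlrc5 (ENSMUSG00000074151) at chr8:94434356-94527272. B2m also differs from the others in base composition, with 41.2% G and C in its transcript, where the other 9 transcripts held 52.5% to 57.1% and the median protein-coding transcript 48.71%.

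The sequences just before the start that RefSeq gives each gene are shown for both heavy chains and the light chain because they carry the elements through which class I genes are classically described as being switched together. RefSeq windows (GRCm38.p6, 250 bases before the annotated start) were at hand for 8 of the 10 genes, all but Tap2 and Nlrc5. In the H2-K1 stretch, chr17:34000348-34000597 on the minus strand, capitals mark in order a kappa B match GGGATTCCC, an interferon consensus match TTTCACTTC, the X2 box letters TGACG and the Y box letters ATTGG. In the B2m stretch, chr2:122147437-122147685 on the plus strand, they mark an interferon-response match GAAACTGAA, TGACG and ATTGG.
H2-K1: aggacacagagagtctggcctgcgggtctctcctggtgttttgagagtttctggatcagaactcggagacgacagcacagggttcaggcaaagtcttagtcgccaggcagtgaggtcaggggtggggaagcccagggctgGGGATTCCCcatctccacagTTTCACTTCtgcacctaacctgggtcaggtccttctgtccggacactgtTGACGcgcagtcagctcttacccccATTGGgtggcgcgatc
B2m: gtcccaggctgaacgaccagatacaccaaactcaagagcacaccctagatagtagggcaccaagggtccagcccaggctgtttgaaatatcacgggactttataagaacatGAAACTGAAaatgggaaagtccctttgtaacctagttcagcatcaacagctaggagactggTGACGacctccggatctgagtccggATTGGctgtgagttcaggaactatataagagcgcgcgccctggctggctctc

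For H2-D1, RefSeq places the start 364 bases downstream of the GENCODE M21 gene start, so the H2-D1 stretches lie inside the GENCODE gene, in its exon at chr17:35262730-35263186. H2-D1 carried the same elements in the same order, in a stretch of which 166 of 190 aligned bases (87.4%) were identical to H2-K1. The first stretch below runs from the kappa B match to the interferon consensus match, at chr17:34000429-34000457 (minus) in H2-K1 and chr17:35262924-35262952 (plus) in H2-D1, and it differed at 1 of 29 bases.
H2-K1: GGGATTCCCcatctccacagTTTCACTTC
H2-D1: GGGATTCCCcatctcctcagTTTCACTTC
The second stretch runs from X2 to Y, at chr17:34000359-34000388 (minus) in H2-K1, chr17:35262993-35263022 (plus) in H2-D1 and chr2:122147609-122147638 (plus) in B2m. H2-D1 differed from H2-K1 at 7 of its 30 bases and B2m from H2-K1 at 17, with the boxes themselves and the 25 bases from the start of one to the start of the other shared by all 3.
H2-K1: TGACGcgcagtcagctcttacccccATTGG
H2-D1: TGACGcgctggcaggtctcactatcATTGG
B2m: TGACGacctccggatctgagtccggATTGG
Of all 32851 RefSeq windows searched on both strands, 0.301% held GGGATTCCC, 0.402% held TTTCACTTC, 7.13% held GAAANNGAA and 0.32% held TGACG followed by ATTGG at 18 to 26 bases between starts. TGACG alone was in 17.8% of windows and ATTGG alone in 33.8%. The windows of Tap1, Tapbp, Psmb8, Psmb9 and Psmb10 held no such pair, and that of Psmb8 held TTCCCAGAA, a match to the interferon-gamma activated site letters TTCNNNGAA that 7.02% of windows share. The RefSeq starts of Tapbp, Psmb8 and Psmb9 lie 3579, 474 and 434 bases from their GENCODE M21 gene starts, and their windows overlap annotated exons. The windows of Tap1 and Psmb9 cover largely the same bases on opposite strands. These matches describe letters only.

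The 10 genes differed widely in abundance. Per kilobase of exon, the median over the 20 intratibial tumors was 479 CPM for B2m (range 261 to 1333), 119 for H2-D1 (46.0 to 239) and 66.0 for H2-K1 (23.5 to 189). Tapbp stood at 39.6 CPM per kilobase and Psmb10 at 12.7. Psmb8 at 3.92, Tap1 at 3.55 and Tap2 at 3.38 CPM per kilobase came next. Nlrc5 at 1.06 and Psmb9 at 0.871 CPM per kilobase were the lowest. Psmb8, Tap1 and Tap2 did not differ in level beyond the spread of their tumors, nor did Nlrc5 and Psmb9, and the ranges of both heavy chains overlapped, though H2-D1 exceeded H2-K1 in each intratibial tumor. Among the 10 genes, the light chain was thus the most abundant per kilobase in these tumors, and the transporter and 2 of the 3 immunoproteasome subunits were scarce. Length here counts all annotated exon bases of a gene, which favours B2m. B2m has 860 such bases and a longest transcript of 860, and H2-K1 has 2938 and 1874. Between the highest and the lowest intratibial tumor, the level of a gene differed by 3.35-fold (Tapbp) to 19.4-fold (Psmb8). Mouse 20 was the highest for both, and for B2m and H2-K1 above. Psmb8 stood at 56.2 CPM in mouse 20, at 30.2 CPM in the next tumor, day 14 cabo mouse 25, and at 2.90 CPM in the lowest. The range of Nlrc5, 17.3-fold, did not involve mouse 20.

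**Figure D1:**
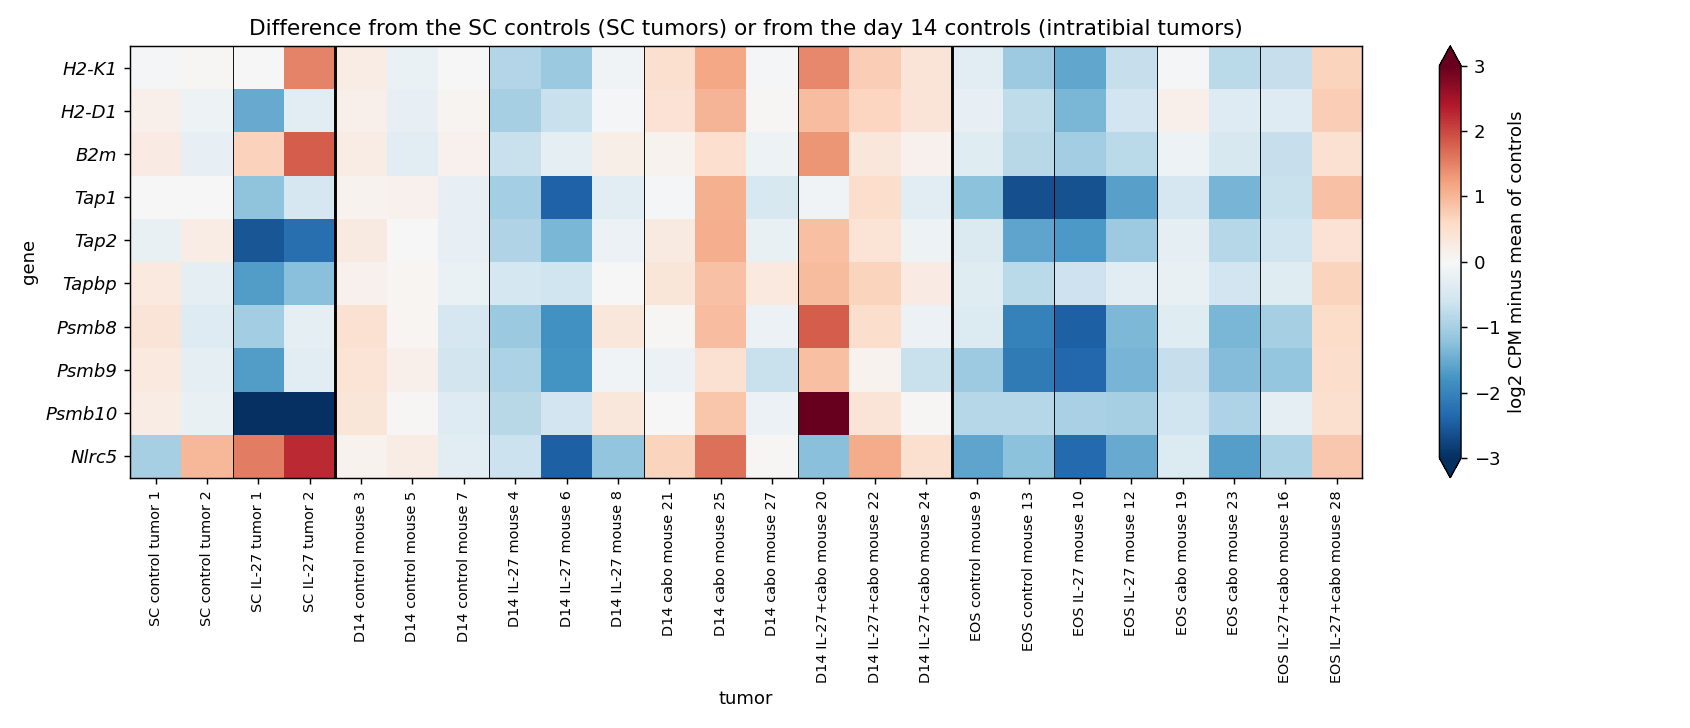
Heat map of the 10 genes (rows) in all 24 tumors (columns, by group and animal), coloured by log2 CPM minus the mean of the SC controls for SC tumors and minus the mean of the day 14 controls for all intratibial tumors, with colours saturating at 3 in either direction. Day 14 cabo mouse 25 and EOS IL-27+cabo mouse 28 lie above the day 14 controls for all 10 genes, EOS IL-27 mouse 10 lies below them for all 10, and mouse 20 is high for most genes but not for Nlrc5.

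Over the intratibial tumors, single animals stood out across the whole pathway. Among the 20 tumors, that of day 14 cabo mouse 25 ranked 1 to 3 for every one of the 10 genes, and that of EOS IL-27+cabo mouse 28 ranked 2 to 4. At the other end, the tumor of EOS IL-27 mouse 10 ranked 19 or 20 for all 10, and that of EOS control mouse 13 was among the 5 lowest for 9. Mouse 20 had a median rank of 1, yet ranked only 15 for Nlrc5, the gene of the class I transactivator. Animals of the same group could therefore lie far apart. In the day 14 IL-27 group, for example, Psmb8 stood at 7.37, 4.54 and 20.2 CPM in mice 4, 6 and 8.

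**Figure D2:**
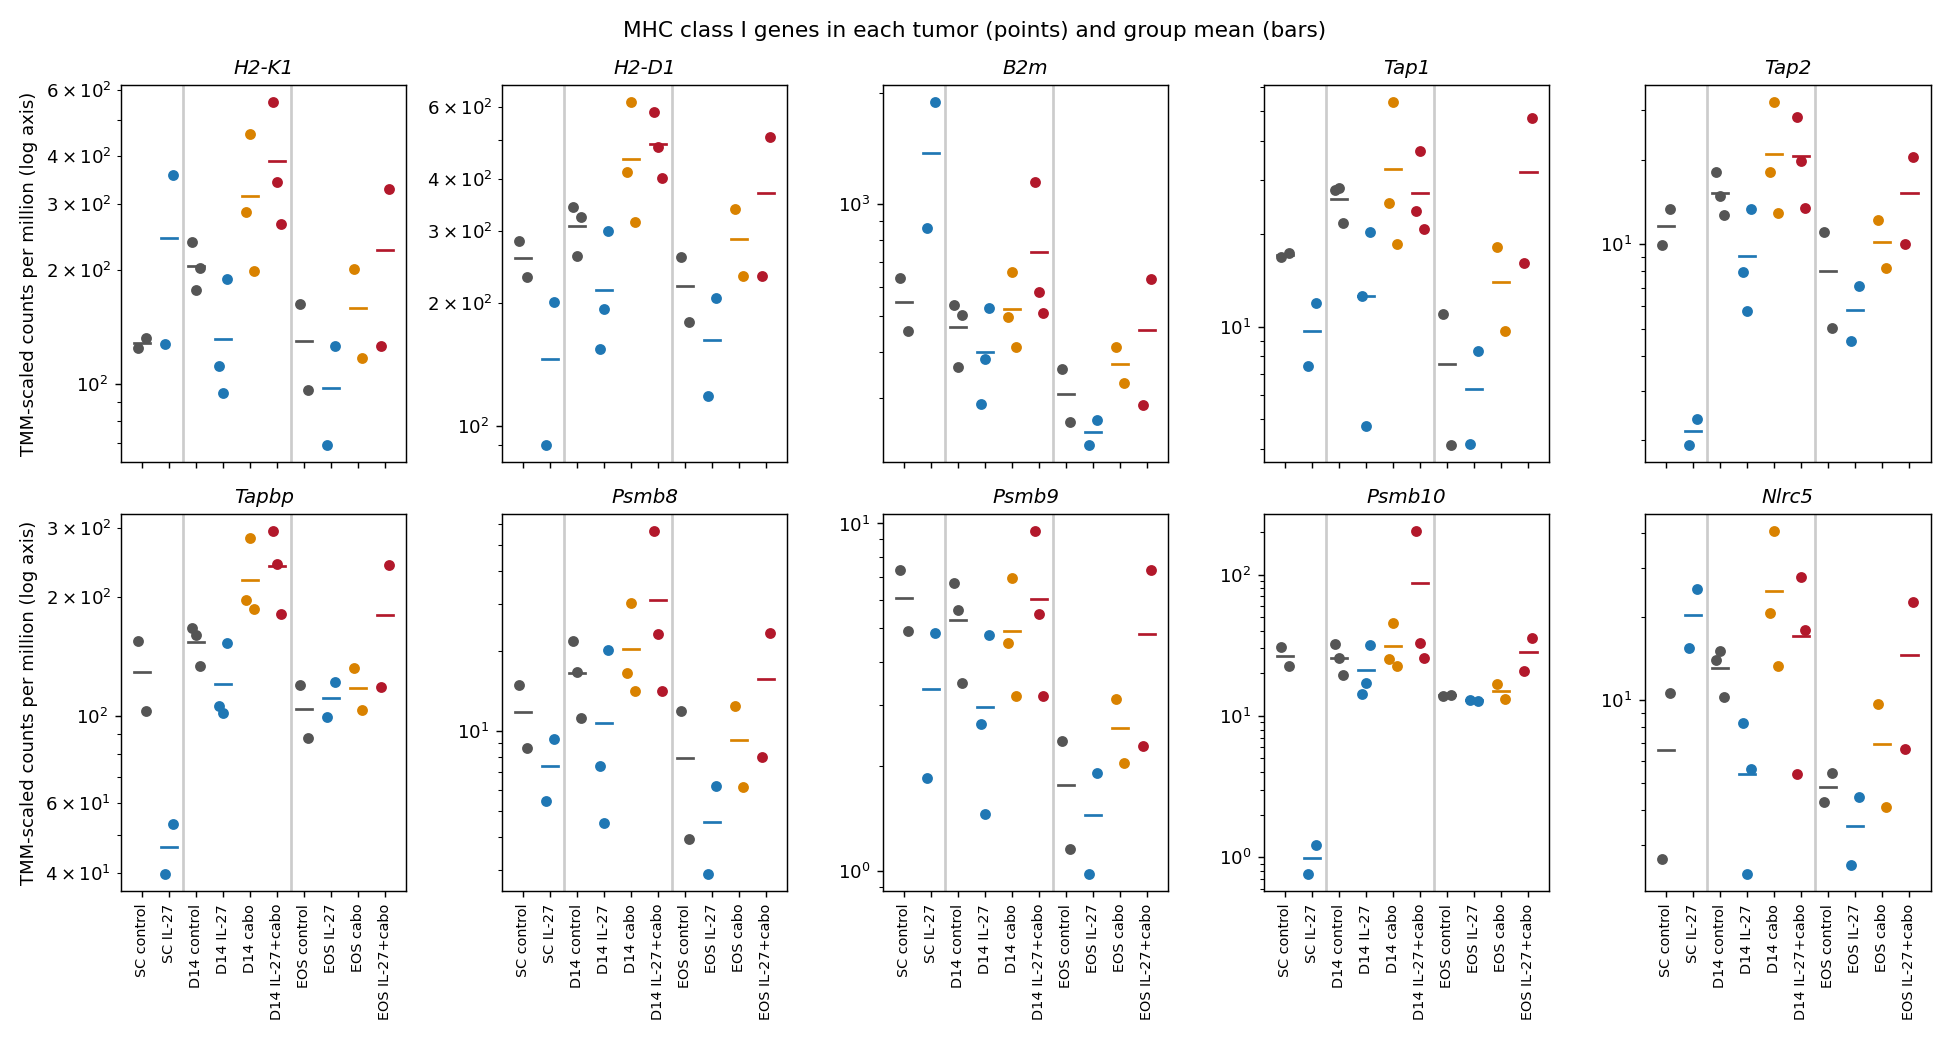
Level of each of the 10 genes in every tumor (points, CPM on a log axis) with the group mean (bars), 1 panel per gene with its own axis and 1 column per group, coloured by treatment. Intratibial groups of 2 or 3 tumors overlap in most panels, while in SC tumors Psmb10, Tap2 and Tapbp are lower in both IL-27 treated tumors than in both controls.

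The SC comparison asked how IL-27 alone altered tumors 1 week after implantation. In it, 3 of the 10 genes passed an adjusted p of 0.05 (edgeR quasi-likelihood test with Benjamini-Hochberg adjustment over all 19360 genes tested), and all 3 were lower in IL-27 treated tumors. Of all genes tested, 20% passed, 16.5% with a lower and 3.52% with a higher level. The 3 genes were an immunoproteasome subunit, a transporter subunit and tapasin.

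Psmb10 stood at 30.95 and 22.4 CPM in control tumors and at 0.76 and 1.22 CPM in IL-27 treated tumors, and the groups were far apart. Its log2 fold change was −4.75 ± 0.49 (SE, n = 2 per group, edgeR adjusted p = 0.00162). Tap2 stood at 9.92 and 13.3 CPM in controls against 1.93 and 2.38 CPM with IL-27, a log2 fold change of −2.43 ± 0.45 (edgeR adjusted p = 0.0108). Tapbp stood at 155 and 103 CPM against 39.7 and 53.3 CPM, a log2 fold change of −1.47 ± 0.36 (edgeR adjusted p = 0.0311). All 3 separated the groups without overlap.

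The other 7 genes did not pass and did not share a direction. B2m, the light chain, stood at 634 and 456 CPM in control tumors and at 865 and 1888 CPM in IL-27 treated tumors, a log2 difference of 1.34 ± 0.46 (edgeR adjusted p = 0.0833). Nlrc5 stood at 2.67 and 10.6 CPM against 15.4 and 25.2 CPM, with a log2 difference of 1.61 ± 0.67 (edgeR adjusted p = 0.135). For both, each IL-27 treated tumor lay above each control.

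The heavy chains parted. H2-K1 stood at 125 and 133 CPM in controls against 128 and 358 CPM with IL-27, so that only 1 of the 2 treated tumors stood apart. H2-D1 stood at 282 and 231 CPM against 90.04 and 201 CPM, with both treated tumors below both controls. The ratio of H2-D1 to H2-K1 per kilobase was 2.58 and 1.98 in the control tumors and 0.802 and 0.641 in the IL-27 treated ones, whereas over the 20 intratibial tumors it ran from 1.19 to 2.32. Tap1 stood at 16.8 and 17.3 CPM against 7.42 and 11.9 CPM. In all, the groups did not overlap for 2 genes higher with IL-27 (31.9% of all genes tested) and 6 lower (35% of all genes), and the median log2 difference of the 10 genes was −0.82 where that of all genes tested was 0.04. DESeq2 called 5 of the 10, where it called 31.6% of all genes tested.

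**Figure D3:**
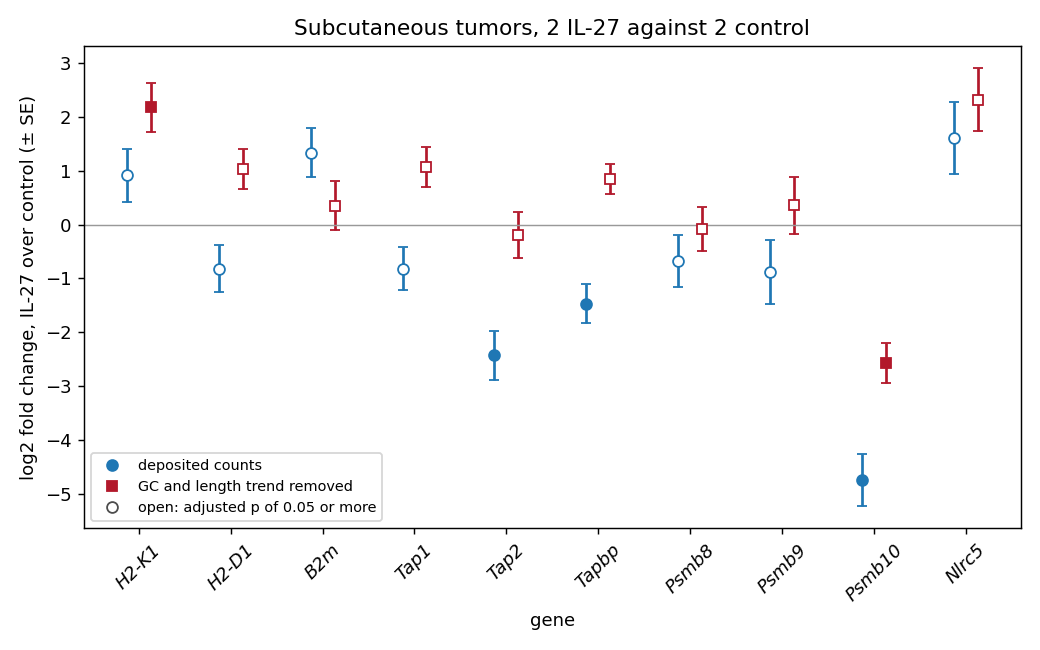
Log2 fold change of the 10 genes, IL-27 treated over control SC tumors (bars are 1 SE, n = 2 per group), from the deposited counts (circles) and after the dependence of every library on GC content and on transcript length was removed (squares), filled where the adjusted p was under 0.05. From the deposited counts 3 genes are positive and 7 negative, and after the correction 7 are positive and 3 negative, with Psmb10 lowest in both.

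These directions depended on base composition and transcript length. After the dependence of every library on both was removed, the median log2 difference of the 10 genes was 0.60 instead of −0.82. That of all genes tested was then −0.08. Of the 10 genes 2 passed, where 1583 of all 19360 genes tested did so. Psmb10 stayed lower, at −2.57 ± 0.37 (edgeR adjusted p = 0.0115), and H2-K1 was then higher, at 2.18 ± 0.46 (edgeR adjusted p = 0.0332). Tapbp changed sign, to 0.84 (edgeR adjusted p = 0.117), and Tap2 came to −0.19 (edgeR adjusted p = 0.853). The call for Tapbp was also lost without 1 IL-27 treated tumor (edgeR adjusted p = 0.239 without the first and 0.116 without the second) and without the first control (edgeR adjusted p = 0.101). Of the 10, Psmb10 alone therefore passed in the same direction with and without the correction.

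Values of other genes and of cell markers in SC tumors, here and below, come from the deposited counts. They are not given with the dependence on GC content and length removed, so their directions may depend on it too. By these counts 2 of the 3 constitutive catalytic subunits, which the immunoproteasome subunits replace, were lower in IL-27 treated tumors. Psmb5 (log2 fold change −4.65, edgeR adjusted p = 0.00179) and Psmb6 (−2.997, edgeR adjusted p = 0.0053) passed, while Psmb7, the counterpart of Psmb10, did not, at 0.22 on the log2 scale. Per kilobase, the ratio of Psmb8 to Psmb5 was 0.0375 and 0.0366 in control tumors and 0.335 and 1.05 in IL-27 treated tumors. The ratio of Psmb10 to Psmb7 went the other way, from 0.208 and 0.304 to 0.00547 and 0.0101. Of 5 further genes of peptide loading and trimming, the aminopeptidase gene Erap1 rose (log2 fold change 1.41, edgeR adjusted p = 0.0471) and the tapasin relative Tapbpl fell (−1.42, edgeR adjusted p = 0.0393), and none of 3 proteasome activator genes passed. Of 15 other class I genes tested, 1 was higher (H2-Q6, 2.03) and 3 were lower (H2-Q1, H2-T23 and Fcgrt). Of 7 class II genes, 1 was higher (H2-Aa, 1.34) and 2 were lower (H2-DMa, −2.91, and H2-DMb1, −1.95).

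Interferon-inducible genes were mostly higher in the same tumors. Among 9 genes induced by interferon-gamma, 6 passed and all 6 rose, among them the chemokine gene Cxcl9 (log2 fold change 2.72, edgeR adjusted p = 0.0072) and the GTPase gene Iigp1 (3.61, edgeR adjusted p = 0.016). Among 8 genes of the type I interferon response, 5 rose, led by the antiviral gene Mx1 (2.76, edgeR adjusted p = 0.00394), and Isg15 fell (−1.81). Ifng, encoding interferon-gamma itself, had 0 and 4 counts in control tumors and 53 and 133 counts in IL-27 treated tumors (edgeR adjusted p = 0.0379). Of the other regulators listed, Rela, Rfxank and Ifngr2 were lower. Cell type markers moved as well. The sum of 5 leukocyte markers was 588 to 622 CPM in controls and 875 to 1186 CPM with IL-27, that of 7 T cell markers 11.5 to 12.7 against 26.6 to 33.0 CPM, that of 3 natural killer (NK) cell markers 5.56 to 7.55 against 16.4 to 28.3 CPM, and that of 10 skeletal muscle markers 2.80 to 11.8 against 333 to 898 CPM. Within the leukocyte list Ptprc and Cd53 rose while Laptm5 and Coro1a fell. The sum of 7 macrophage markers was 1210 to 1452 CPM in controls and 942 to 1338 CPM with IL-27, and Cd68, C1qa, C1qb and C1qc of that list fell. Of the neutrophil markers, 5 of 5 tested rose. The part of these cells in the class I values was not tested.

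At day 14 the question was how IL-27, cabo and both together altered intratibial tumors. No member passed an adjusted p of 0.05 in any of the 16 intratibial comparisons by edgeR, and 0% of all genes tested passed in 10 of the 16. The values below are therefore given with the count at an unadjusted p under 0.05 and the number called by DESeq2. In the 12 comparisons in which DESeq2 called none of the 10, it called 0.0108% to 2.58% of all genes tested. The day 14 comparisons share tumors, as do those at EOS, and each is given on its own.

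With IL-27, all 10 genes were lower than in controls on average, by a median log2 difference of −0.62 (range −1.26 to −0.21, all genes tested 0.02). An unadjusted p under 0.05 was reached by 4 of the 10, all lower, against 1.85% of all genes tested, and DESeq2 called 0. The 4 became 0 with all intratibial groups in 1 fit, 2 without the low-count filter and 5 with the GC and length trend removed. The lowest p belonged to Nlrc5, which stood at 13.9, 15.03 and 10.2 CPM in control mice 3, 5 and 7 and at 8.25, 2.35 and 5.65 CPM in IL-27 mice 4, 6 and 8. The groups did not overlap, and the log2 difference was −1.26 ± 0.42 (SE, n = 3 per group, edgeR adjusted p = 1). Tap1 was the only other gene without overlap, at 27.8, 28.2 and 21.8 CPM against 12.6, 4.74 and 20.3 CPM, and lower values without overlap were found for 4.73% of all genes.

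Mouse 8 lay within the range of the controls for 8 of the 10 genes, the exceptions being Nlrc5 and Tap1, whereas mice 4 and 6 lay below it for 10 and 9. Without mouse 8 the median difference was −1.05, with 9 genes at an unadjusted p under 0.05. It was −0.46 with 1 such gene without mouse 4 and −0.44 with 2 without mouse 6, and 1 such gene was left without any one of the 3 controls. The 8 type I interferon response genes were also all lower, with a median log2 difference of −1.22 and none called. The sum of the 5 leukocyte markers was 426 to 637 CPM in controls and 265 to 376 CPM with IL-27, and that of 7 macrophage markers 509 to 1163 against 360 to 832 CPM. The 10 skeletal muscle markers summed to 24.2, 56.9 and 1672 CPM in IL-27 mice 4, 6 and 8, where controls had 5.15 to 120 CPM, so that mouse 8 was the one with much muscle RNA. With these markers as a covariate the median difference of the 10 genes was −0.94, with 6 at an unadjusted p under 0.05. The 7 T cell markers summed to 64.3, 11.4 and 16.2 CPM in IL-27 mice 4, 6 and 8, against 63.2 to 71.1 CPM in controls. The part of leukocytes, macrophages and T cells was not tested.

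With cabo, 9 of the 10 genes were higher than in controls on average, with a median log2 difference of 0.38. Tapbp and Nlrc5 reached an unadjusted p under 0.05 (9.64% of all genes tested did so with a higher level, and 1.89% passed after adjustment). Tapbp, the tapasin gene, stood at 167, 159.95 and 134 CPM in controls and at 197, 282 and 186 CPM in cabo mice 21, 25 and 27, all above the controls, as for 14.9% of all genes. Its log2 difference was 0.51 ± 0.17 (edgeR adjusted p = 0.167), and DESeq2 called it (adjusted p = 0.0422), as it called 7.97% of all genes tested. Nlrc5 stood at 20.5, 40.7 and 13.2 CPM and overlapped the controls.

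The cabo difference rested on mouse 25, without which the median log2 difference was −0.03, with 5 of 10 genes positive. In the same comparison 1 of 9 interferon-gamma inducible genes passed, Cd274, which encodes the checkpoint ligand PD-L1 (0.94, edgeR adjusted p = 0.0265), and 5 of 7 T cell markers fell, the T cell receptor component gene Cd3e by 1.97 on the log2 scale. Cd8a, which marks cytotoxic T cells, went the other way without passing, at 2.62 on the log2 scale (edgeR adjusted p = 0.0859). The T cell marker sum was 63.2 to 71.1 CPM in controls and 18.4 to 27.7 CPM with cabo, while leukocyte markers as a whole summed to 507 to 578 CPM with cabo, within the range of the controls. The 10 skeletal muscle markers summed to 5.15 to 120 CPM in controls and 952 to 1503 CPM with cabo. The 6 endothelial markers summed to 218 to 304 CPM in controls and 147 to 166 CPM with cabo, and Kdr, which encodes a receptor of VEGF, and Egfl7 were called lower. The part of these cells was not tested. In a fit with the muscle markers as a covariate the median difference of the 10 genes was 0.71, and 0 of 10 had an unadjusted p under 0.05. The muscle sums did not overlap between the groups, so that fit cannot separate muscle content from cabo.

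With both agents, all 10 genes were higher than in controls on average (median log2 difference 0.67, and 0.18 to 0.81 as each tumor was left out). H2-K1, H2-D1 and Tapbp reached an unadjusted p under 0.05, against 4.23% of all genes tested, and they were also the 3 genes whose groups did not overlap (7.49% of all genes). After adjustment 0.064% of all genes passed. DESeq2 called none of the 10. H2-K1 stood at 237, 177 and 203 CPM in controls and at 557, 342 and 265 CPM in IL-27+cabo mice 20, 22 and 24, a log2 difference of 0.94 ± 0.33 (edgeR adjusted p = 0.658). H2-D1 stood at 342, 260.1 and 323 CPM against 583, 479 and 403 CPM. Both heavy chains were thus highest in mouse 20, but the other 2 animals also lay above every control.

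Psmb10 behaved otherwise. It stood at 202 CPM in mouse 20 and at 32.9 and 25.9 CPM in mice 22 and 24, where controls ranged from 19.4 to 32.5 CPM. The constitutive subunits were high in mouse 20 as well, with Psmb5 at 292 CPM against 59.2 and 59.7 CPM in the other 2 animals. Without mouse 20 the median log2 difference of the 10 genes was 0.18, with H2-K1, H2-D1, Tapbp and Nlrc5 at an unadjusted p under 0.05. No gene was left at that level without control mouse 5 or control mouse 7, and 1 without control mouse 3. With the GC and length trend removed it was 0.35, with 0 of 10 at that level.

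Cell type markers moved in this comparison too. The sum of 8 epithelial and prostate markers was 332, 147 and 149 CPM in mice 20, 22 and 24, against 111 to 134 CPM in controls. The skeletal muscle sum was 1240 to 4020 CPM with both agents and 5.15 to 120 CPM in controls, with 10 of 10 markers at an unadjusted p under 0.05 and none called. The T cell sum was 16.6 to 20.8 against 63.2 to 71.1 CPM, with 5 of 7 markers lower at an unadjusted p under 0.05 and Cd3e called (−2.67, edgeR adjusted p = 0.0406), while Cd8a was at 1.95 on the log2 scale (edgeR adjusted p = 0.799). The sum of 6 endothelial markers was 101.2 to 142 against 218 to 304 CPM, with 4 of 6 lower at an unadjusted p under 0.05 and none called. Their part was not tested. In a fit with the muscle markers as a covariate the median difference of the 10 genes was 0.54, and 0 of 10 had an unadjusted p under 0.05. The muscle sums did not overlap here either, so that fit cannot separate muscle content from treatment.

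Compared with IL-27 alone, the combination was higher on average for all 10 genes, with a median log2 difference of 1.16. An unadjusted p under 0.05 was reached by 6 (3.17% of all genes tested did so with a higher level), and 0% of all genes passed after adjustment, as for IL-27 against control. DESeq2 called 0. The lowest p belonged to H2-K1, at 112, 94.8 and 189 CPM with IL-27 against 557, 342 and 265 CPM with both agents, a log2 difference of 1.54 ± 0.40 (edgeR adjusted p = 0.916). H2-K1, H2-D1, Tap1, Tap2 and Tapbp, the heavy chains, the transporter and tapasin, separated the groups (6.81% of all genes did so with a higher level). As each tumor was left out the median ran from 0.84, without mouse 20, to 1.595, without IL-27 mouse 8. The number of genes at an unadjusted p under 0.05 was then 4 and 8, and it fell to 3 without IL-27 mouse 4 and to 2 without IL-27 mouse 6. In the same comparison the 8 type I interferon response genes were all higher at an unadjusted p under 0.05, with a median log2 difference of 2.05 and none called. The leukocyte sum was 385 to 548 CPM with both agents against 265 to 376 CPM, and the macrophage sum 891 to 1591 against 360 to 832 CPM, both without overlap. The endothelial sum was lower, at 101.2 to 142 against 209 to 267 CPM. The part of these cells in the class I values was not tested. The muscle sums were 1240 to 4020 against 24.2 to 1672 CPM, and with the muscle covariate the median was 0.51 with 0 genes at an unadjusted p under 0.05.

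Compared with cabo alone, the combination showed no shift that stood against its spread. None of the 10 reached an unadjusted p under 0.05 (1.92% of all genes did so) and DESeq2 called 0. The median log2 difference was 0.26, it was −0.09 without mouse 20 and 0.57 without cabo mouse 25, where all 10 genes were positive. With the GC and length trend removed it was 0.038, and with the muscle covariate it was −0.37, where all 10 genes were negative. The lowest p belonged to Psmb10, at 1.56 ± 0.85 (edgeR adjusted p = 0.788), which came to −0.07 without mouse 20. In the test of whether the effect of both agents departs from the sum of the 2 log2 effects, all 10 estimates were positive (median 0.77), none reached an unadjusted p under 0.05 by edgeR (1.88% of all genes did so), and DESeq2 called 0. Psmb10 had the lowest p, with 1.83 ± 0.96 (edgeR adjusted p = 0.952). Without mouse 20 it came to 0.22, and the median of the 10 to 0.50. The median was 1.20 with 4 genes at an unadjusted p under 0.05 without IL-27 mouse 8, and 1.30 with 2 such genes without cabo mouse 25.

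At EOS, when daily dosing had ended, controls stood low for most of the pathway. Against them, IL-27 treated tumors were lower on average for 9 of 10 genes (median log2 difference −0.39). None had an unadjusted p under 0.05 (3.25% of all genes did so), and DESeq2 called 0. The lowest p belonged to Psmb8, at 11.9 and 3.92 CPM in control mice 9 and 13 and 2.90 and 6.24 CPM in IL-27 mice 10 and 12, a log2 difference of −0.80 ± 0.71 (n = 2 per group, edgeR adjusted p = 1). The 2 control animals lay further apart than the groups, and the median difference of the 10 genes ran from −0.85 without IL-27 mouse 12 to 0.11 without control mouse 9.

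Tumors of cabo treated mice at EOS were higher than controls on average for all 10 genes (median log2 difference 0.31), with 0 at an unadjusted p under 0.05 (8.9% of all genes did so) and 0 called by DESeq2. The lowest p belonged to Tap1, at 10.95 and 4.13 CPM in controls and 18.2 and 9.69 CPM with cabo, a log2 difference of 0.88 ± 0.65 (edgeR adjusted p = 0.732). The groups overlapped, and the median difference ran from 0.02 without cabo mouse 19 to 0.70 without control mouse 9. The skeletal muscle sum was 96.1 to 744 CPM against 5.34 to 10.2 CPM in controls, with 10 of 10 markers at an unadjusted p under 0.05. The T cell sum was 6.72 to 7.42 against 14.3 to 14.5 CPM, with 5 of 7 markers lower at that level, and the macrophage sum was 612 to 625 against 321 to 521 CPM. None of these markers was called, and their part was not tested.

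The combination at EOS was higher than controls on average for all 10 genes, with a median log2 difference of 0.93. An unadjusted p under 0.05 was reached by 4, namely Psmb10, Tap1, Nlrc5 and Tapbp, against 7.36% of all genes tested, and by edgeR 0% of all genes passed after adjustment. Psmb10 stood at 13.9 and 14.0 CPM in control mice 9 and 13 and at 20.7 and 35.5 CPM in IL-27+cabo mice 16 and 28, a log2 difference of 0.99 ± 0.26 (edgeR adjusted p = 0.199). Tap1 stood at 10.95 and 4.13 CPM against 16.1 and 47.6 CPM, a log2 difference of 2.05 ± 0.67 (edgeR adjusted p = 0.257). DESeq2 called these 2 genes, Tap1 with an adjusted p of 0.0132, and 4.63% of all genes tested.

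Tap1, Psmb10 and Nlrc5 separated the groups (21.6% of all genes did so with a higher level), but the 2 treated animals were far apart. Without mouse 28 the median log2 difference was 0.25, and without mouse 16 it was 1.32, with 9 genes at an unadjusted p under 0.05. One gene was left at that level without mouse 28, and 1 also without control mouse 13, where the median was 0.53. The leukocyte markers summed to 353 to 645 CPM in these tumors and to 237 to 396 CPM in controls, and the macrophage markers to 618 to 1100 against 321 to 521 CPM. The T cell sum was lower, at 5.74 to 9.12 against 14.3 to 14.5 CPM, and the skeletal muscle sum higher, at 81.4 to 182 against 5.34 to 10.2 CPM, with 9 of 10 muscle markers at an unadjusted p under 0.05 and none called. The part of these cells was not tested.

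The last set of comparisons set EOS against day 14 within each treatment. In controls all 10 genes were lower at EOS on average, with a median log2 difference of −0.90. An unadjusted p under 0.05 was reached by 9, all lower, against 7.22% of all genes tested, and the 3 day 14 and 2 EOS control tumors did not overlap for 9 (17.6% of all genes). After adjustment 0.104% of all genes and none of the 10 passed by edgeR, while DESeq2 called 4 of the 10 and 4.52% of all genes tested. With all intratibial groups in 1 fit, 2 of the 10 had an unadjusted p under 0.05.

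Nlrc5 stood at 13.9, 15.03 and 10.2 CPM at day 14 and at 4.29 and 5.44 CPM at EOS, a log2 difference of −1.42 ± 0.25 (edgeR adjusted p = 0.123, DESeq2 adjusted p = 1.18e-05). Tap1 stood at 27.8, 28.2 and 21.8 CPM against 10.95 and 4.13 CPM, a log2 difference of −1.78. Psmb9 stood at 6.73, 5.63 and 3.47 CPM against 2.36 and 1.16 CPM. The heavy and light chains differed less, with H2-K1 at 177 to 237 CPM against 163 and 96.7 CPM and B2m at 364 to 534 CPM against 359 and 258 CPM. Psmb8, with 11.2 to 21.8 CPM against 11.9 and 3.92 CPM, was the one gene whose groups overlapped.

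The ratio of Psmb9 to its constitutive counterpart Psmb6 per kilobase ran from 0.0135 to 0.0225 at day 14 and from 0.00460 to 0.00853 at EOS in controls. Without EOS mouse 13 the median difference of the 10 genes was −0.46, with 4 genes at an unadjusted p under 0.05, and without EOS mouse 9 it was −1.18 with all 10. Markers of immune cells were lower in the same tumors. The T cell sum was 63.2 to 71.1 CPM at day 14 and 14.3 to 14.5 CPM at EOS, with 4 of 7 markers called lower, and the leukocyte sum was 426 to 637 against 237 to 396 CPM. The sum of 4 osteoclast markers was higher at EOS, at 377 to 736 against 179 to 218 CPM. The part of these cells in the class I difference was not tested.

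**Figure D4:**
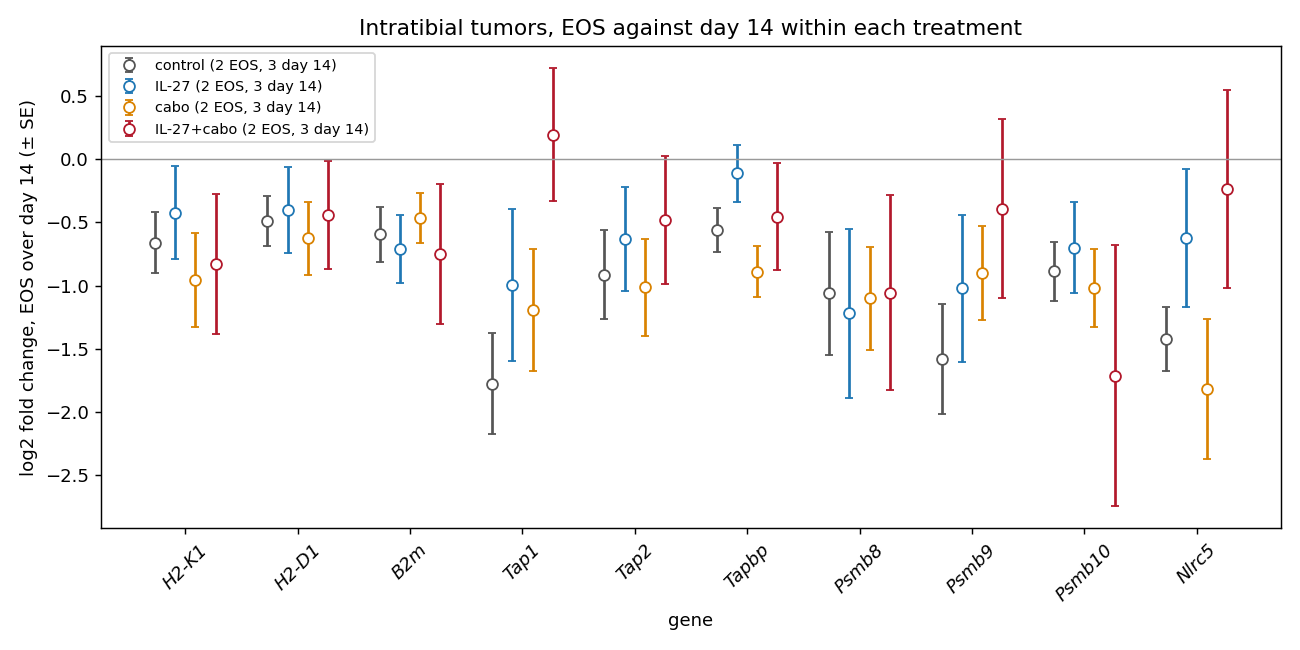
Log2 fold change of the 10 genes, EOS against day 14, within each of the 4 treatments (points, bars are 1 SE, 3 tumors at day 14 and 2 at EOS per treatment). All 10 points lie below 0 in control, IL-27 and cabo treated tumors, and 9 of 10 with IL-27+cabo, where the bars are wide.

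With cabo the same comparison gave a median log2 difference of −0.99, all 10 genes lower at EOS. An unadjusted p under 0.05 was reached by 8 (9.53% of all genes did so with a lower level, and 2.09% passed after adjustment), and the groups did not overlap for 8 (20.3% of all genes). Tapbp stood at 197, 282 and 186 CPM at day 14 and at 132 and 103 CPM at EOS, a log2 difference of −0.89 ± 0.20 (edgeR adjusted p = 0.084). DESeq2 called Tapbp (adjusted p = 9.31e-05) and Psmb10 (adjusted p = 0.00729), as it called 9.14% of all genes tested. Nlrc5 stood at 20.5, 40.7 and 13.2 CPM against 9.71 and 4.11 CPM.

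Without day 14 mouse 25 the median was −0.60 with 3 genes at an unadjusted p under 0.05, and without EOS mouse 23 a single gene was left at that level. Without EOS mouse 19 the median was −1.28 with all 10 at that level. In this comparison Cd274 (−0.99, edgeR adjusted p = 0.0445) and the chemokine gene Cxcl10 (−1.86, edgeR adjusted p = 0.0473) passed among the 9 interferon-gamma inducible genes, as did 1 of 5 leukocyte, 1 of 7 macrophage and 2 of 7 T cell markers, all lower, and 4 of 6 endothelial markers, all higher (282 to 357 CPM at EOS against 147 to 166 CPM at day 14). The skeletal muscle sum was 96.1 to 744 CPM at EOS against 952 to 1503 CPM at day 14, lower without overlap, with 3 of 10 markers at an unadjusted p under 0.05 and none called. The part of these cells was not tested.

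With IL-27 and with IL-27+cabo fewer of the genes reached an unadjusted p under 0.05 between day 14 and EOS, which does not show that they changed less. With IL-27 all 10 genes were lower at EOS (median −0.67), but only B2m reached an unadjusted p under 0.05 (3.08% of all genes did so with a lower level) and DESeq2 called 0. B2m stood at 288, 383 and 525 CPM at day 14 and 224 and 262 CPM at EOS, a log2 difference of −0.71 ± 0.27 (edgeR adjusted p = 0.818). With IL-27+cabo, 9 genes were lower (median −0.47), 0 had an unadjusted p under 0.05 (3.83% of all genes did so), and DESeq2 called 0. Psmb10 had the lowest p there, with −1.71 ± 1.04 (edgeR adjusted p = 0.925), and it came to −0.075 without day 14 mouse 20. The 10 skeletal muscle markers were lower at an unadjusted p under 0.05 in both comparisons, with sums of 7.58 to 14.1 CPM at EOS against 24.2 to 1672 CPM at day 14 with IL-27 and 81.4 to 182 against 1240 to 4020 CPM with IL-27+cabo. The 1672 CPM was that of mouse 8. The sum of 4 osteoclast markers was higher at EOS, at 362 to 364 against 127 to 205 CPM with IL-27 and 322 to 484 against 111 to 215 CPM with IL-27+cabo. With IL-27+cabo the T cell sum was lower, at 5.74 to 9.12 against 16.6 to 20.8 CPM, and the endothelial sum higher, at 267 to 363 against 101.2 to 142 CPM. None of these markers was called, and their part was not tested. The median with IL-27+cabo was −0.25 without mouse 20, −1.36 without EOS mouse 28 and −0.03 without EOS mouse 16.

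Whether a treatment changed the pathway differently at EOS than at day 14 was tested as the difference between the 2 changes against control. Tap1 in the IL-27+cabo groups was the only value of 30 (10 genes, 3 treatments) with an unadjusted p under 0.05, at 2.01 ± 0.87 on the log2 scale (edgeR adjusted p = 0.532), and it ran from 1.02, without EOS mouse 28, to 2.87, without EOS control mouse 9, as each tumor was left out. It was 1.46 without EOS control mouse 13, 1.84 without mouse 24, 1.92 without mouse 20, 1.93 without day 14 control mouse 3 and 1.94 without day 14 control mouse 5. In these 5 fits and in that without EOS mouse 28 its unadjusted p was above 0.05. For IL-27 the lowest p belonged to Tapbp, with 0.45 ± 0.42 (edgeR adjusted p = 1), and for cabo also to Tapbp, with −0.35 ± 0.42 (edgeR adjusted p = 1). Of all genes tested, 1.93% (IL-27), 4.11% (cabo) and 9.14% (IL-27+cabo) had an unadjusted p under 0.05, and 0%, 0.0788% and 0.0788% passed after adjustment. DESeq2 called 0 of the 10 in each of the 3.

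**Figure D5:**
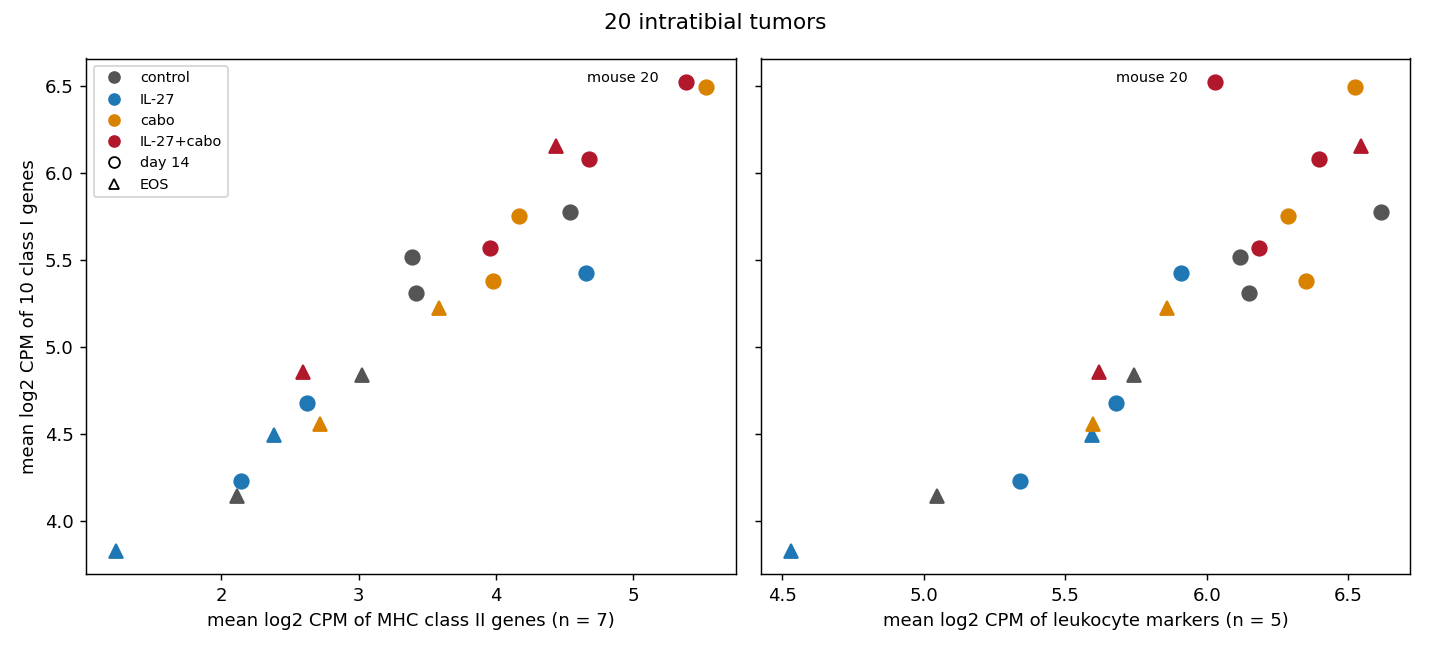
Mean log2 CPM of the 10 class I pathway genes (vertical axis) against that of 7 class II genes (left) and 5 leukocyte markers (right) in the 20 intratibial tumors, coloured by treatment, with circles for day 14 and triangles for EOS. EOS IL-27 mouse 10 lies at the low end of both panels, and mouse 20 lies near the top with class II genes but to the left of the other high tumors in the leukocyte panel.

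The 10 genes varied together over the intratibial tumors. As a description over 20 tumors that share treatments and host cell content, the Pearson correlation of a gene's log2 CPM with the mean of the other 9 was 0.985 for Tap2, 0.980 for H2-K1, 0.966 for Psmb8, 0.954 for Tapbp, 0.950 for Psmb9, 0.948 for H2-D1, 0.905 for Tap1 and 0.900 for B2m. Psmb10, at 0.798, and Nlrc5, at 0.716, followed less closely, and without mouse 20 they reached 0.902 and 0.899. Spearman's rho ran from 0.741 (Nlrc5) to 0.994 (Tap2). Relative to the mean of each group, correlations of 8 genes were 0.817 to 0.979, with Psmb10 at 0.627 and Nlrc5 at 0.326, and without mouse 20 these 2 came to 0.810 and 0.732.

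Of the 21553 other genes, the 5 with the pattern most like the mean of the 10 were Ifi47, an interferon-inducible GTPase gene (r = 0.969), H2-Eb1 (0.965), H2-Ab1 (0.962), Cd74 (0.960) and H2-Q4 (0.958). H2-Eb1 and H2-Ab1 encode MHC class II chains, Cd74 encodes the invariant chain of class II, and H2-Q4 is another class I gene. Without the 2 tumors farthest from the median, EOS IL-27 mouse 10 and mouse 20, these correlations were 0.945 to 0.975.

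Over lists, the correlation with the mean of the 10 was 0.968 for the 7 class II genes, 0.938 for the 9 interferon-gamma inducible genes, 0.906 for the 8 type I interferon genes and 0.904 for the 17 other class I genes. For cell type markers it was 0.874 for leukocytes, 0.867 for macrophages, 0.834 for NK cells, 0.647 for skeletal muscle and 0.365 for T cells. Relative to the mean of each group, these 5 came to 0.727, 0.690, 0.780, 0.314 and 0.422, and class II genes to 0.960. The constitutive proteasome subunits gave 0.391, 0.042 without mouse 20, and 0.428 relative to the mean of each group. The class I genes thus tracked class II, interferon-inducible, leukocyte and macrophage genes more closely than T cell markers or the constitutive proteasome, and none of these relations was tested.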

How the data were processed

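Poly(A) RNA was sequenced with paired reads from strand-specific libraries. Per the labels, the submitters' processing notes name FastQC, HISAT2, StringTie and DESeq2, without versions, and the human build GRCh38, although the tumors are from mice. The authors deposited raw counts per Ensembl gene, and the counting program is not given in the sources used here. The IDs were matched to GENCODE M21 (55141 of 55401 matched). Counts were fitted with edgeR 4.0.16 in R 4.3.3 (filterByExpr, TMM, quasi-likelihood F test, Benjamini-Hochberg adjustment over all genes tested), after checks on simulated data. CPM used TMM library sizes, set apart for SC and intratibial tumors. EOS contrasts used all 8 EOS tumors, the differences of changes (EOS minus day 14) all 20 intratibial tumors, and the others only the groups compared. Full values are given for genes with an adjusted p under 0.05, or otherwise for the one with the lowest p, and other values by group. The genes, lists and tests were chosen with earlier results of these data known.

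Alternatives were DESeq2 1.42.0, RLE size factors, no low-count filter, removal of the dependence of every library on GC content and length (splines with 5 degrees of freedom), counts divided by 4, a muscle covariate (day 14), all intratibial tumors in 1 fit, a replicate block (SC), and leaving out each tumor. Some of the 10 genes share sequence with others, and of 100-base stretches, 14.0% of Tapbp, 5.35% of Tap2 and 4.64% of H2-D1 also occur in another gene, which counting may split. Promoter sequences are from RefSeq. Some marker genes are not reported here.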

Additional observations from a re-analysis of the deposited data

Results flagged for a closer look

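Nlrc5, the class I transactivator gene, differed from control in opposite directions in the 2 experiments. In SC tumors both IL-27 treated tumors lay above both controls, with a log2 difference of 1.61, whereas at day 14 all 3 IL-27 treated intratibial tumors lay below all 3 controls, with a log2 difference of −1.26. The 2 SC controls lay far apart, at 2.67 and 10.6 CPM, and the SC difference was 0.95 without the first and 2.89 without the second, where it passed (edgeR adjusted p = 0.0268). With all tumors neither difference passed the adjusted threshold by edgeR, and the difference between the 2 experiments was not tested, since they were normalized apart.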

How the results depend on the processing

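The number of the 10 genes called kept within 1.5 times its edgeR value in all alternatives other than DESeq2, which called 5 in SC tumors (edgeR 3; 31.6% of all genes by DESeq2), 1 for cabo against control at day 14 (7.97%), 2 for IL-27+cabo against control at EOS (4.63%), and, for EOS against day 14, 4 in controls (4.52%) and 2 with cabo (9.14%), with edgeR at 0 in each of these 4. Leaving out 1 tumor at a time gave a median log2 difference of the 10 genes of −1.37 to −0.35 in SC tumors, where 1 tumor was then left in a group. It gave 0 calls in the comparisons within day 14. For the 19 gene values given with full statistics as called or of lowest p, 5 of 277 alternative values reversed. SC Tapbp came to 0.84 with the GC and length trend removed, and also to 0.84 with the replicate block and that trend removed. Psmb10, IL-27+cabo against cabo at day 14, came to −0.45 with the muscle covariate and ran from −0.068 (without mouse 20) to 1.985 as each tumor was left out. Psmb8, IL-27 against control at EOS, ran from −1.45 to 0.22 as each tumor was left out, with 0.22 without control mouse 9. The cause was not tested. SC replicate numbers do not pair the tumors (correlation of deviations 0.0313). The replicate block gave 4 calls, where 4248 of all 19360 genes tested were called. With the trend also removed it gave 3, where 2577 of 19360 were called. Over all 10 genes, SC signs went from 3 positive and 7 negative to 7 and 3 with the trend removed. With all counts divided by 4, the number called was the same in all 17 comparisons.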
